A study of Homo sapiens and Mus musculus with 92 samples.

Results

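The RNA polymerase II (Pol II) preinitiation complex is the set of proteins that gathers at a gene's start site before a transcript is begun. Its genes were taken by symbol from the RNA-seq count tables of HEL cells, an established human erythroleukemic cell line that the labels call a human erythroblast line. They are 42 of the 28103 genes in each table and comprise 12 subunits of Pol II, 14 of TFIID, 2 of TFIIA, 1 of TFIIB, 2 of TFIIE, 2 of TFIIF, 6 of the core of TFIIH and 3 of its CDK-activating kinase (CAK). The study compared mRNA after knockdown (KD) of MLL1, a histone H3K4 methyltransferase encoded by KMT2A, and of AF9, a subunit of the super elongation complex encoded by MLLT3, with mRNA in control cells. The MLL1 experiment has 3 libraries of MLL1 KD cells and 3 of control cells. The AF9 experiment has 2 libraries of AF9 KD cells and 2 of its own control cells. The labels give the controls the genotype WT, and the study's methods name a lentiviral control shRNA. Each KD used a lentiviral shRNA of its own, MLL1 shRNA #1 or AF9 shRNA #1, in puromycin-selected pools rather than clones, so effects of the target and of that particular shRNA cannot be told apart. Libraries were made from polyA RNA and keep the strand. The labels do not say whether replicates came from separate cultures, so p-values measure the spread between these libraries, which may be technical.

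Before transcription starts, TFIID binds the core promoter through TBP and the TBP-associated factors (TAFs). TFIIA steadies TBP on DNA, TFIIB bridges TBP and the polymerase, and TFIIF escorts Pol II to the promoter. TFIIE then brings in TFIIH, whose ERCC3 and ERCC2 subunits are a DNA translocase and a helicase and whose CAK phosphorylates the tail of the largest Pol II subunit. The study profiled POLR2A and TBP on chromatin in control and AF9 KD HEL cells and in the murine leukemia line iMA9. It profiled GTF2E2 in iMA9 cells only. Those data are not analysed here. Only the mRNA of the 42 genes is described.

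Total counts per library lay between 6966345 and 10380241 in the MLL1 experiment and between 12278989 and 14232408 in the AF9 experiment. Replicate 1 of both groups of the MLL1 experiment stood apart from replicates 2 and 3. The chi-square of counts per degree of freedom was 31.6 and 34.7 between replicate 1 and the other control libraries and 54.3 and 60.2 in MLL1 KD cells, against 2.4 and 2.69 between replicates 2 and 3. It was 4.14 and 9.94 in the AF9 experiment. The deviations of same-numbered MLL1 KD and control libraries were correlated in all 3 pairs (0.647, 0.325 and 0.351). Replicates 2 and 3 also correlated across numbers (0.368 and 0.359), so the numbers mainly mark replicate 1. Values from a fit with the replicate number as a block are given wherever that block changes a call. KMT2A was at 1319, 1302 and 1254 CPM (counts scaled by library size and TMM factor) in control and 815, 812 and 832 CPM in MLL1 KD cells, or 0.635 of control (edgeR, adjusted p = 0.0722, and 2.5e-07 with the block). MLLT3 was at 548 and 527 CPM in control and fell to 107 and 92.5 CPM in AF9 KD cells, or 0.186 of control (adjusted p = 2.9e-08). Each target also had a lower estimate in the other KD. KMT2A was at 0.80 of control in AF9 KD cells (adjusted p = 0.0199). MLLT3 was at 0.82 of control in MLL1 KD cells (adjusted p = 0.613, and 0.0171 with the block). Of the other-cell markers, CD3E, MS4A1, CD14 and ALB had at most 4 counts in any library, EPCAM had at most 39, and COL1A1 had 83 in MLL1 KD replicate 3 and at most 9 elsewhere, while the erythroid markers GATA1, KLF1 and TAL1 had at least 92.5 CPM. The summed TPM (counts scaled by exon length and then by depth) of the 9 erythroid markers was 2933 to 3635 in control and 2342 to 2705 in MLL1 KD cells, and 35430 to 35460 in control and 23950 to 28410 in AF9 KD cells. Most of the latter sum is HBG1 and HBG2, and GATA1, KLF1, ALAS2, EPOR and TFRC were instead higher in TPM in both AF9 KD libraries than in either control library, ALAS2 at 344 and 341 in control and 525 and 582 in AF9 KD cells. The summed TPM of the 8 other-cell markers, most of it PECAM1, was 115.8 to 117.0 in control and 136.6 to 154.3 in MLL1 KD cells, and 84.3 to 92.0 in control and 68.5 to 68.8 in AF9 KD cells. The part of these shifts in the results below was not tested.

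The following 4 promoters are shown because they belong to 4 of the 5 genes called in either KD. RefSeq gave a promoter window, 250 bases before to 50 after the start, for 35 of the 42 genes on GRCh38.p14. Printed are the last 150 bases of each window, 100 before and 50 after the start, 5′ to 3′ on the gene's strand, with motif matches in capitals.
GTF2B (chr1:88891518-88891667, minus strand): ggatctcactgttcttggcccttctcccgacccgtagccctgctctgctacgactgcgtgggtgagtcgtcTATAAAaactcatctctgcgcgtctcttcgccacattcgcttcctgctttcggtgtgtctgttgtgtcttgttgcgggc
TAF7 (chr5:141320735-141320884, minus strand): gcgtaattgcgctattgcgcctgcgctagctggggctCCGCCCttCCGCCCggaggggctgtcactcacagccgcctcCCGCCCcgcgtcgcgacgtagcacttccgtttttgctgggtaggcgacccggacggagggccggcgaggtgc
TAF13 (chr1:109075954-109076103, minus strand): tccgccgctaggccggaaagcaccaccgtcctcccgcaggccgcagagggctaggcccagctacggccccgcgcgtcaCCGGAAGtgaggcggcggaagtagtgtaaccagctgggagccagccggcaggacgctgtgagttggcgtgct
POLR2E (chr19:1095326-1095475, minus strand): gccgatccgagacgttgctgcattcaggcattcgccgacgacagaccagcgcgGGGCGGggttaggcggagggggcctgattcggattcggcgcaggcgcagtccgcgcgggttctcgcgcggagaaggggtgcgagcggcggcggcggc

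The capitals mark a TATA box (TATAAA), GC boxes (GGGCGG, whose other strand reads CCGCCC) and an ETS motif (CCGGAAG). All motifs were searched on both strands. GTF2B was the only 1 of the 35 promoters with the letters TATAAA, with its first base 29 bases before the start, against 12.0% of 27305 RefSeq promoters. CCGGAAG stood in 13 of the 35 windows (37.1%), against 10.7% of all promoters, and TAF13 carried it 22 bases before the start. GGGCGG stood in 21 of the 35 (60.0%) against 44.6%, and TAF7 carried 3 copies. CCAAT stood in 7 of the 35 (20.0%) against 35.7%, the YY1 motif AAGATGGC in 3 (8.6%) against 3.0%, and the NRF1 motif TGCGCATG in 1 (2.9%) against 2.3%. Base composition was near that of all promoters, with a median GC content of 59.3% against 58.3%. A match describes letters in the window and does not show a bound factor.

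All 42 genes were expressed in both experiments and passed the filter of a mean TPM of 1. In control cells of the MLL1 experiment their mean TPM ranged from 3.38 for GTF2H5, a small stabilizing subunit of TFIIH, to 424 for POLR2A, the catalytic subunit of Pol II, with a median of 31.5. In control cells of the AF9 experiment they ranged from 5.95 for TAF3, a TFIID subunit that reads H3K4 trimethylation, to 257 for POLR2K, with a median of 43.98. Subunits that sit in the same enzyme did not share a level. With lengths over merged exons, POLR2F was the lowest of the 12 Pol II genes in both experiments, at 6.57 TPM in the MLL1 experiment, and the highest gene exceeded it 64.5-fold and 19.7-fold. Among the 14 TFIID genes TBP was highest in both, at 60.8 and 63.5 TPM, and the lowest were TAF13 at 3.59 TPM in the MLL1 experiment and TAF3 in the AF9 experiment.

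**Figure D1:**
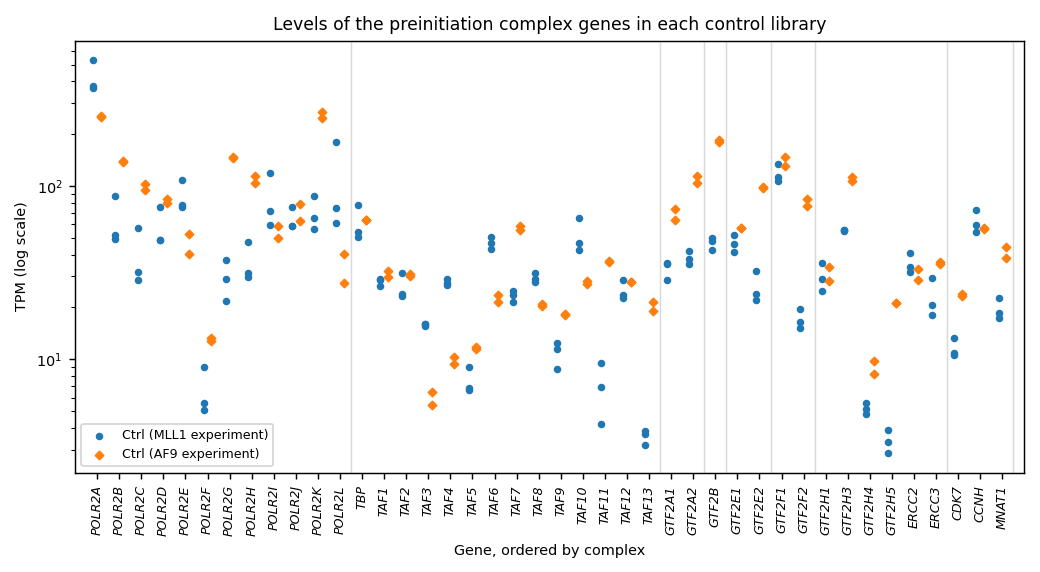
Level of each of the 42 genes in every control library, in TPM on a log axis, with genes ordered by complex. Blue circles are the 3 control libraries of the MLL1 experiment and orange diamonds the 2 of the AF9 experiment, and POLR2A and POLR2K are the highest genes of the respective experiments.

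The order of the levels was alike but not the same in the controls of both experiments (Spearman's rho 0.63 over 42 genes, which share length and base composition). The tables come from separate experiments, so these levels are set side by side without a test. GTF2H5 was 6.24-fold, TAF13 5.64-fold, TAF11 5.34-fold and POLR2G 4.97-fold higher in the controls of the AF9 experiment, whereas POLR2L stood at 0.323, TAF4 at 0.353 and TAF3 at 0.376 of their level in the MLL1 experiment. TBP, GTF2H1 and POLR2J differed little, at ratios of 1.05, 1.05 and 1.096. The length used for a gene matters for such levels, since the canonical transcript in place of all merged exons moved the median of the 42 genes from 31.5 to 39.5 TPM in the MLL1 experiment. With that length TAF12, at 99.5 and 94.4 TPM, and not TBP, at 47.0 and 41.8 TPM, was the highest TFIID gene in both experiments. The range of the Pol II genes narrowed to 25.3-fold and 10.4-fold, and in the AF9 experiment POLR2L was then the lowest Pol II gene and GTF2H4 the lowest member.

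In MLL1 KD cells most of the 42 genes stayed within 1.5-fold of control, and the largest differences were a lower level of GTF2B and higher levels of TAF7 and TAF13. GTF2B encodes TFIIB, the factor that places Pol II relative to TBP. Without the block no member was called, where a call needs both a difference of 1.5-fold or more and an adjusted p under 0.05 by edgeR's quasi-likelihood test. That test called 10 of 14408 genes (0.0694%), and 4 of the 42 members and 1437 of all genes had an unadjusted p under 0.05. With the replicate block it called 1 member higher, against 2.22% of all genes, and 1 lower, against 2.51%. DESeq2, run on the same libraries without a block, called the same 2 members, and its share over all genes is not given here. Among the members 29 had a higher and 13 a lower estimate, and the median log2 fold change was 0.11, beside 0.01 over all genes tested. In bulk RNA, fewer cells expressing a gene and less of its RNA per cell cannot be told apart.

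GTF2B (chr1:88852633-88891944, minus strand) was at 26.9, 32.1 and 33.2 CPM in control replicates 1, 2 and 3 and at 13.7, 17.7 and 13.7 CPM in the MLL1 KD replicates. Every MLL1 KD library lay below every control library. The means were 30.7 ± 3.33 (SD, n = 3) and 15.0 ± 2.30 CPM (SD, n = 3). MLL1 KD cells were thus at 0.488 of control, a log2 fold change of -1.03 ± 0.18 (SE). The adjusted p was 0.126 without the block and 1.2e-04 with it. The libraries held 125 to 261 counts of the gene, and none of the 31-base stretches of its transcript occurs in another annotated gene. Leaving out each library in turn gave log2 fold changes between -1.16 and -0.97.

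TAF7, a TFIID subunit that binds TAF1 and restrains its acetyltransferase activity, moved the other way. It was at 18.8, 18.9 and 17.03 CPM in control cells and at 38.2, 30.4 and 27.9 CPM in MLL1 KD cells. The groups did not overlap, and the control libraries were close to each other. The log2 fold change was 0.82 ± 0.18 (SE), or 1.76-fold, with an adjusted p of 0.168 without the block and 7.9e-04 with it. TAF7 (chr5:141259884-141320784, minus strand) also shares no 31-base stretch with another gene.

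**Figure D2:**
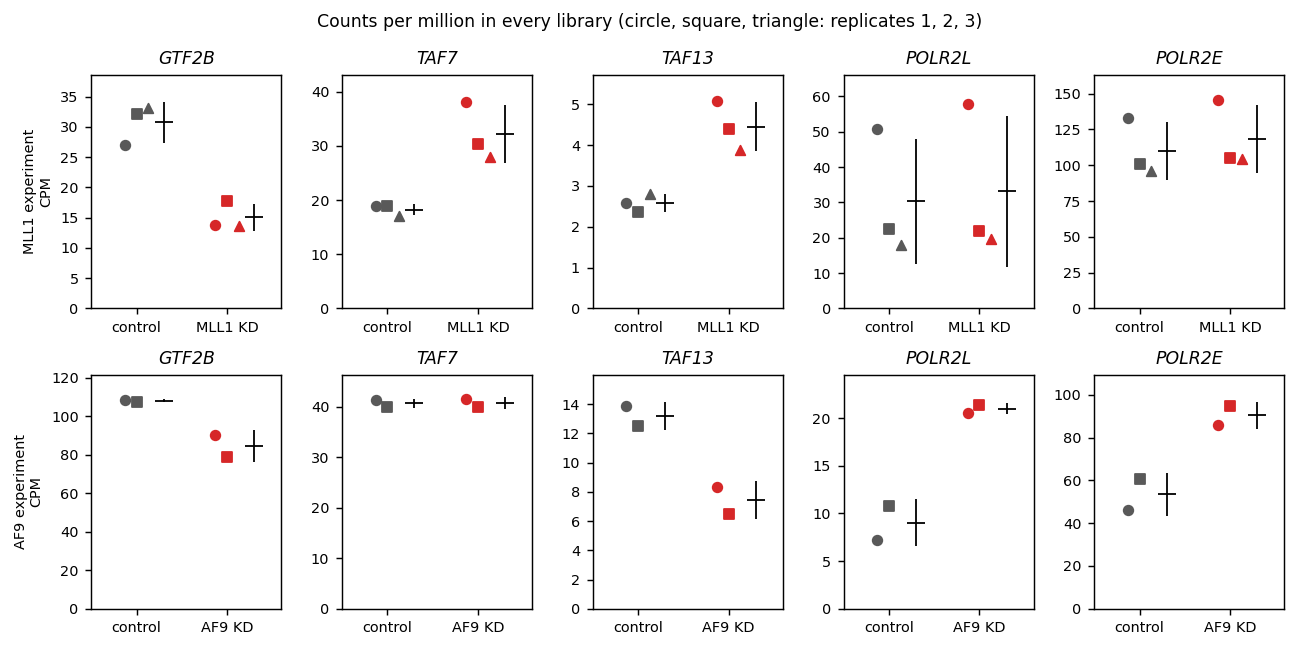
CPM of GTF2B, TAF7, TAF13, POLR2L and POLR2E in every library, with the MLL1 experiment in the upper row and the AF9 experiment in the lower row. Grey marks are control and red marks KD libraries, circles, squares and triangles are replicates 1, 2 and 3, and black bars show the mean ± SD. GTF2B was lower in all 3 MLL1 KD libraries and POLR2L higher in both AF9 KD libraries than in any control library of the same experiment.

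Other TFIID genes differed less in MLL1 KD cells. TAF13, whose protein pairs with TAF11, was at 2.58, 2.36 and 2.80 CPM in control cells and 5.07, 4.39 and 3.88 CPM in MLL1 KD cells, from 17 to 51 counts. Its groups did not overlap, and its 1.72-fold estimate did not pass, with adjusted p values of 0.395 and, with the block, 0.131. TAF12 was at 62.1, 51.6 and 52.6 CPM in control and 47.0, 40.0 and 40.5 CPM in MLL1 KD cells. TAF10 was at 94.9, 72.2 and 65.3 CPM in control and 65.7, 50.5 and 64.0 CPM in MLL1 KD cells. TAF12 and TAF10 both belong to SAGA as well as to TFIID. Their ratios of 0.767 and 0.776 had adjusted p values of 0.419 and 0.582, and of 0.0195 and 0.0347 with the block, under the fold change of a call. With the block, TAF10 no longer passed when 1 library of replicate 2 was left out, nor TAF12 when 1 library of replicate 2 or 3 was. TAF10 shares 14.2% of its 31-base stretches with other annotated genes, so part of its counts is uncertain. TBP was at 45.3, 33.5 and 30.8 CPM in control and 50.0, 41.6 and 39.3 CPM in MLL1 KD cells, groups that overlapped (adjusted p = 0.741, and 0.143 with the block). The remaining 9 TFIID genes had log2 fold changes between -0.19 and 0.23.

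No Pol II gene passed in MLL1 KD cells, with or without the block. POLR2A was at 1111, 836 and 803 CPM in control and 1132, 855 and 886 CPM in MLL1 KD cells, a log2 fold change of 0.06 ± 0.17 (SE). The other 11 Pol II genes lay between -0.26 for POLR2H and 0.35 for POLR2G. These genes differed by replicate number. In control and in MLL1 KD cells alike, replicate 1 was the highest library for all 12 Pol II genes, whereas this held for 31.2% of all genes tested. POLR2L was at 50.7, 22.3 and 17.9 CPM in control and 57.9, 21.9 and 19.6 CPM in MLL1 KD cells, so that replicate 1 exceeded the mean of replicates 2 and 3 2.52-fold and 2.79-fold. POLR2F was at 15.9, 10.4 and 9.41 CPM in control and 16.9, 6.79 and 9.16 CPM in MLL1 KD cells. POLR2E was at 133, 101 and 95.7 CPM and 146, 105 and 104 CPM, and POLR2J at 17.7, 14.7 and 14.5 CPM and 21.4, 16.4 and 18.2 CPM. Their KD and control libraries overlapped throughout. Over all 42 members replicate 1 was highest in both groups for 26 and lowest in both for 5, against 30.6% of all genes for the latter.

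**Figure D3:**
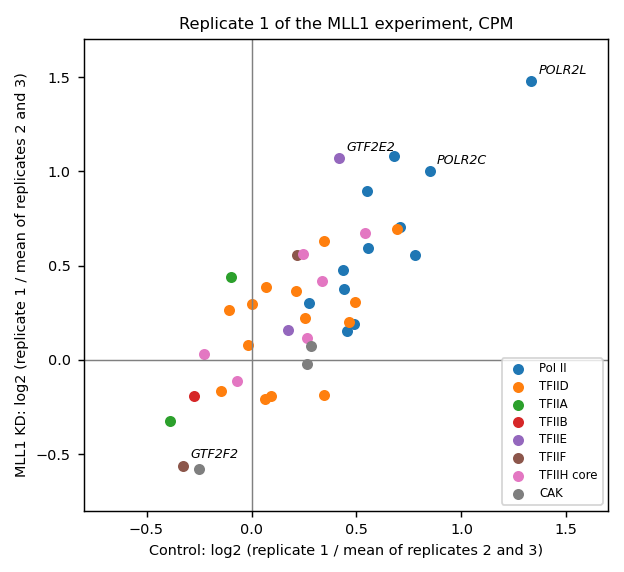
Replicate 1 over the mean of replicates 2 and 3 of the MLL1 experiment, as log2 of the CPM ratio, in control cells (x axis) and MLL1 KD cells (y axis). Each point is 1 of the 42 genes, coloured by complex, and all 12 Pol II genes lie in the upper right quadrant, with POLR2L farthest out.

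Among the other general factors in MLL1 KD cells, both TFIIA genes had positive estimates, and GTF2A1, the large subunit precursor, was 1.23-fold higher (adjusted p = 0.643, and 0.0492 with the block). It no longer passed with the block when 1 library of replicate 2 or 3 was left out. With an adjusted p under 0.05 as the sole rule and the block, 2 members were higher (6.62% of all genes) and 3 lower (6.95%), namely TAF7 and GTF2A1, and GTF2B, TAF12 and TAF10. GTF2E2, the smaller TFIIE subunit, was at 20.9, 15.1 and 16.1 CPM in control and 27.1, 12.7 and 13.1 CPM in MLL1 KD cells. Its libraries overlapped, and the sign of its difference turned with the block, from 0.03 to -0.03. GTF2F1 and GTF2F2, the TFIIF subunits, had log2 fold changes of 0.22 and 0.25 that did not pass. The 6 core TFIIH genes lay between -0.24 for GTF2H3 and 0.31 for ERCC2. The CAK genes CDK7, CCNH and MNAT1, which encode the kinase, its cyclin and its assembly factor, had log2 fold changes of -0.17, 0.16 and 0.33, and none passed. The MNAT1 and TAF3 libraries lay above and the TAF8 and GTF2H3 libraries below those of control cells without overlap. In all, 4 members lay wholly above and 4 wholly below control, against 8.63% and 9.06% of all genes tested.

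**Figure D4:**
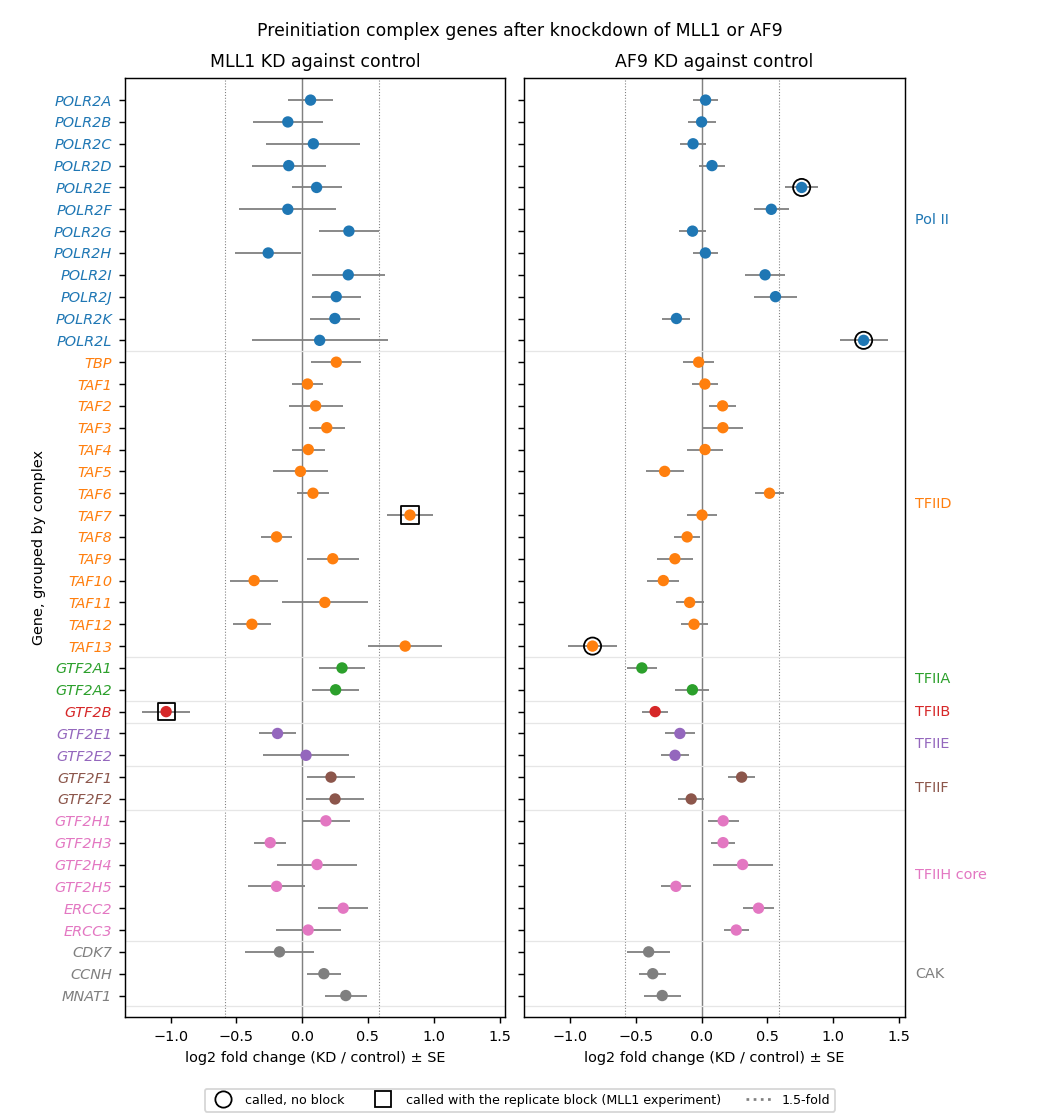
Log2 fold change of each of the 42 genes without the replicate block, for MLL1 KD (left) and AF9 KD (right) against their own controls, with bars for the SE and dotted lines at 1.5-fold. Circles mark members called without the block and squares members called with it in the MLL1 experiment, which are TAF7 and GTF2B on the left and POLR2E, POLR2L and TAF13 on the right.

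In AF9 KD cells the Pol II genes POLR2L and POLR2E rose and the TFIID gene TAF13 fell. These were the 3 members called, 2 higher against 8.01% of the 13350 genes tested and 1 lower against 5.06%. With an adjusted p under 0.05 alone, 8 members were higher (14.4% of all genes) and 4 lower (14.5%). Without control replicate 1, 2 members were higher (POLR2E and POLR2L, against 5.18% of all genes) and 1 lower (TAF13, against 6.14%). Without control replicate 2, 7 were higher, against 11.3% of all genes, and 2 lower, against 9.33%. Of all genes called, 61.3% were higher, a share of 76.4% with total counts and of 46.4% with offsets for GC content. Estimates were positive for 20 and negative for 22 members, and the median log2 fold change was -0.01, beside 0.01 over all genes. With only 2 libraries a group, KD and control did not overlap for 13 members above and 17 below control, which were also common patterns over all genes tested, at 32.8% and 33.2%.

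POLR2L and POLR2E are small subunits that Pol I, Pol II and Pol III have in common. POLR2L (chr11:837356-842529, minus strand) was at 7.26 and 10.7 CPM in control cells and 20.6 and 21.4 CPM in AF9 KD cells. Both AF9 KD libraries stood well above both control libraries. The means were 8.998 ± 2.46 (SD, n = 2) and 21.0 ± 0.575 CPM (SD, n = 2). The gene rose 2.35-fold, a log2 fold change of 1.23 ± 0.18 (SE, edgeR, adjusted p = 3.7e-04). The gene had 100 to 286 counts a library. POLR2E (chr19:1086574-1095380, minus strand) was at 46.4 and 60.7 CPM in control and 85.9 and 94.9 CPM in AF9 KD cells. This was a rise of 1.69-fold, with a log2 fold change of 0.76 ± 0.12 (SE) and an adjusted p of 6.9e-04. Without control replicate 1 the log2 fold change of POLR2E was 0.58, just under the 1.5-fold line.

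Other Pol II genes had smaller positive differences. POLR2F, also common to the 3 polymerases, was at 20.9 and 22.1 CPM in control and 33.6 and 28.4 CPM in AF9 KD cells, 1.44-fold higher (adjusted p = 0.00948). POLR2J, which contacts POLR2C, was at 13.7 and 17.4 CPM in control and 25.1 and 20.7 CPM in AF9 KD cells, 1.48-fold higher (adjusted p = 0.0181). Copies of POLR2J are annotated, and 34.7% of its 31-base stretches occur in other genes, so its counts are uncertain. POLR2I was 1.40-fold higher (adjusted p = 0.0268). Of the 5 subunits common to the 3 polymerases, POLR2E, POLR2F and POLR2L had an adjusted p under 0.05, while POLR2H and POLR2K had log2 fold changes of 0.03 and -0.19 that did not pass. POLR2A hardly differed, at 496 and 494 CPM in control and 510 and 500 CPM in AF9 KD cells, a log2 fold change of 0.03 ± 0.09 (SE). POLR2B, POLR2C, POLR2D and POLR2G lay between -0.07 and 0.08.

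Within TFIID, TAF13 (chr1:109062496-109076012, minus strand) was at 13.9 and 12.5 CPM in control and 8.35 and 6.504 CPM in AF9 KD cells. Its AF9 KD libraries were the lower, without overlap, and the log2 fold change was -0.83 ± 0.19 (SE), or 0.563 of control (adjusted p = 0.00478). It was called in every fit that left out 1 library, between -1.02 and -0.65. TAF11, its partner, was at 0.938 of control and did not pass (adjusted p = 0.552). TAF6, a histone-fold subunit that pairs with TAF9, was 1.43-fold higher (adjusted p = 0.00421), while TAF9 was at 0.868 of control (adjusted p = 0.286). TBP was at 34.5 and 35.0 CPM in control and 33.2 and 35.1 CPM in AF9 KD cells, a log2 fold change of -0.02 ± 0.12 (SE). TAF7, at 41.3 and 40.0 against 41.6 and 39.8 CPM, and TAF12, at 56.2 and 56.5 against 55.6 and 52.6 CPM, had ratios of 1.00 and 0.960. TAF10 was at 36.7 and 38.9 CPM in control and 29.1 and 32.6 CPM in AF9 KD cells (adjusted p = 0.0854, and 0.025 with the replicate block).

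GTF2B was lower in AF9 KD cells too, at 109 and 107 CPM in control and 90.3 and 78.8 CPM in AF9 KD cells. Its log2 fold change of -0.35 ± 0.10 (SE), or 0.783 of control, had an adjusted p of 0.017 and lay under the fold change of a call. GTF2A1 was at 0.730 of control (adjusted p = 0.00863) and was called when AF9 KD replicate 1 was left out. GTF2E2 was at 58.8 and 60.5 CPM in control and 53.4 and 50.2 CPM in AF9 KD cells, and GTF2E1 at 0.891 of control, and neither passed. Of TFIIF, GTF2F1 was 1.23-fold higher (adjusted p = 0.0385), and GTF2F2 was at 0.946 of control. Of the core TFIIH genes ERCC2 was 1.35-fold higher (adjusted p = 0.0161) and ERCC3 1.20-fold. ERCC3 was just outside the threshold (adjusted p = 0.0515) and passed with the replicate block (adjusted p = 0.0169). GTF2H4, whose transcript shares 96.2% of its 31-base stretches with another annotated gene, is uncertain. All 3 CAK genes lay below control without overlap, as did 33.2% of all genes tested. CDK7 was at 0.756, CCNH at 0.773 and MNAT1 at 0.812 of control, and of these CCNH passed (adjusted p = 0.0138). With the replicate block CDK7 and MNAT1 passed too (adjusted p = 0.0286 and 0.0208). With the offsets for GC content given below, no CAK gene passed. CDK7 shares 13.6% of its 31-base stretches with another annotated gene, so part of its counts is uncertain.

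The AF9 experiment carried a shift with base composition. The GC content of the exons of all genes, weighted by CPM, was 46.16% and 46.52% in control and 46.94% and 47.37% in AF9 KD libraries, against 48.83% to 49.24% in the MLL1 experiment. The 8 members higher at an adjusted p under 0.05 had an exon GC content of 55.2% to 61.8%, with a median of 59.2%, and the 4 lower ones had 36.4% to 42.6%, with a median of 38.7%. Across the 42 genes, which share libraries, Spearman's rho between GC content and the log2 fold change was 0.65, beside 0.48 over 13061 genes with a GC value. In the MLL1 experiment the rho over the members was -0.03.

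Offsets for each library's trend with GC content lowered the rho over the members to 0.15. The shift coincided with the groups, since both AF9 KD libraries lay above both control libraries in GC content. A technical shift and a KD effect that follows GC content cannot be told apart, and the offsets remove either. POLR2L remained higher (log2 fold change 0.85 ± 0.15, SE, adjusted p = 0.00173) and TAF13 lower (-0.70 ± 0.16, SE, adjusted p = 0.00764). These were 1 member called higher, against 3.69% of all genes, and 1 called lower, against 4.26%. POLR2E came to 0.30, or 1.23-fold, with an adjusted p of 0.0235, and POLR2F to 1.29-fold with 0.0441. POLR2I, POLR2J, GTF2F1 and ERCC2 no longer passed, at log2 fold changes of 0.05, 0.39, -0.01 and 0.08. Of the lower members GTF2A1, GTF2B and CCNH no longer passed, at 0.847, 0.880 and 0.886 of control (adjusted p = 0.0571, 0.102 and 0.129). Members that passed with the offsets and not without them were TAF10, on the lower side, and TAF2, GTF2H1, GTF2H3 and ERCC3, at 1.28-fold, 1.28-fold, 1.26-fold and 1.23-fold. The number of members higher at an adjusted p under 0.05 was again 8, with 4 of the original genes among them, against 12.1% of all genes, and 2 were lower, against 14.2%.

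**Figure D5:**
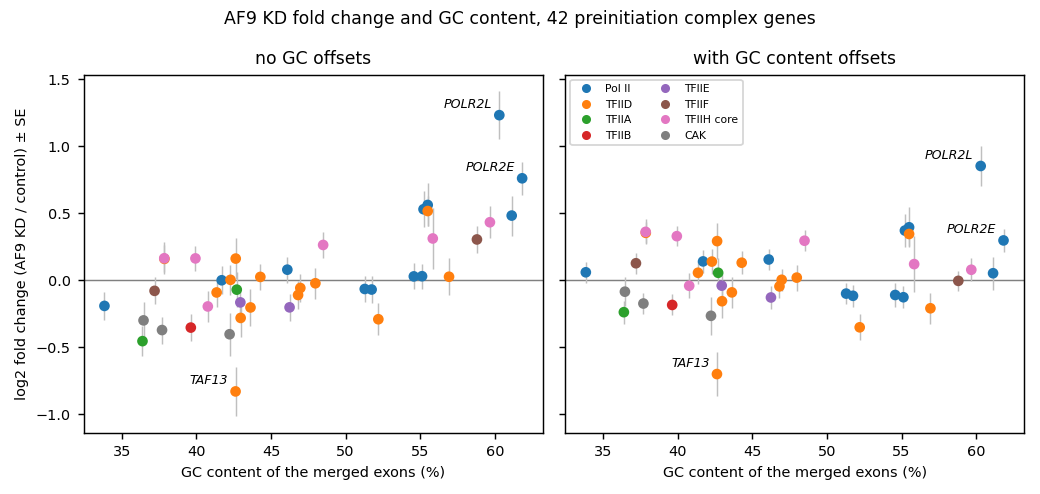
Log2 fold change in AF9 KD cells against the GC content of the merged exons of each of the 42 genes, without (left) and with (right) the offsets for GC content, with bars for the SE. Estimates are higher at higher GC content in the left panel, where Spearman's rho is 0.65, and POLR2L and TAF13 stay apart from the rest in the right panel.

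The effects of both KDs were compared per gene by the interaction of KD and experiment, over the 12750 genes tested in both tables. Each KD has its own experiment, so what differs between KDs and what differs between experiments cannot be told apart. TAF13 was the 1 member called, against 1.36% of all genes, with a log2 fold change difference of -1.63 ± 0.32 (SE), AF9 KD minus MLL1 KD (adjusted p = 0.0462). With GC offsets this difference was -1.48 and no longer passed (adjusted p = 0.0804), and with the replicate block it was -1.63 (adjusted p = 0.00237). With the block, 7 members were called, against 15.3% of all genes. They were TAF13, TAF7, GTF2A1 and MNAT1, with the lower effect in AF9 KD cells, and POLR2L, POLR2E and GTF2B, with the higher. GTF2B, below control in each KD, differed by 0.66 ± 0.16 (SE) with the block (adjusted p = 0.0076), and TAF7 by -0.83 ± 0.17 (SE, adjusted p = 0.00254). POLR2L differed by 1.07 ± 0.74 (SE, adjusted p = 0.513) without the block and 1.11 ± 0.21 (SE, adjusted p = 0.00111) with it.

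Without GC offsets, genes of neighbouring machinery were called about as often as all genes in AF9 KD cells, 14 of 99 tested (14.1%) against 13.1%. With GC offsets 3 of the 99 (3.0%) were called, all of them higher, against 3.69% of all genes called higher. None of the 99 was called lower, against 4.26% of all genes. In MLL1 KD cells, where few genes of any kind were called, no gene of the 6 related lists was called without the block. With it, 1 was called, MED24, a Mediator tail subunit, at 94.6 ± 19.9 CPM in control and 60.5 ± 8.42 CPM in MLL1 KD cells (SD, n = 3, adjusted p = 5.2e-04). In AF9 KD cells 4 of 32 Mediator genes (12.5%) were called, a share near that of all genes. CDK19, a kinase of Mediator, and MED21 fell to 0.634 and 0.649 of control, and MED16 and MED25 rose 1.88-fold and 1.58-fold. None of the 4 was called with GC offsets.

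Of 19 tested genes for subunits particular to Pol I and Pol III, 3 (15.8%) were called in AF9 KD cells, against 13.1% of all genes. None was called lower, against 5.06% of all genes, and POLR1A and CD3EAP rose. POLR1A, the largest Pol I subunit, went from 106.6 ± 3.53 to 163 ± 8.03 CPM (SD, n = 2), and CD3EAP, also a Pol I subunit, from 20.0 ± 1.44 to 36.3 ± 0.168 CPM. Their ratios of 1.53 and 1.81 had adjusted p values of 4.5e-04 and 3.6e-04, and both genes were called with GC offsets too, at 1.53 and 1.602. Of the 10 partners and regulators of TBP outside TFIID, 3 (30.0%) were called. TAF1D fell to 0.606 of control. TAF1C, which like TAF1D belongs to the Pol I factor SL1, rose 1.85-fold, and BRF1, a subunit of the Pol III factor TFIIIB, 1.66-fold. Of 16 SAGA genes 2 (12.5%) were called, and ATXN7 fell to 0.642 of control and TAF6L rose 1.94-fold. Of 15 tested genes for Pol II assembly and import 2 (13.3%) were called, and RPAP1 and RUVBL2 rose 1.51-fold and 1.504-fold. None of these 7 was called with GC offsets. Of the paralogs and copies of the members, 7 of 13 were tested, and none was called in either KD.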

How the data were processed

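RNA-seq of HEL cells was used, 3 control and 3 MLL1 KD libraries and 2 control and 2 AF9 KD libraries. Per the methods and labels, the authors filtered reads with fastp 0.13.1, mapped them to hg38 with HISAT2 2.1.0 and counted them per gene and strand with featureCounts 1.6.1. The deposited values are raw counts per gene. The annotation behind them, and how multiply mapped reads were counted, are not given in the sources used here. CUT&Tag and PRO-seq samples were not analysed here.

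Symbols were matched to GENCODE 44 for exon length and GC content (92.4% of symbols, all 42 members). Tests covered genes whose TPM averaged 1 or more (CPM where no length was matched), by the quasi-likelihood test of edgeR 4.0.16 (TMM factors, two-sided, R 4.3.3), each experiment alone, and the difference of both effects over all 10 libraries. P values were Benjamini-Hochberg adjusted over all genes tested, and a call took a difference of 1.5-fold or more together with an adjusted p under 0.05. The scripts were tested on simulated data. In the MLL1 experiment, deviations of same-numbered libraries from their group means had correlations of 0.647, 0.325 and 0.351, so the numbers were taken to pair them. Replicates 2 and 3 also correlated across numbers (0.359 and 0.368), so the numbers mainly mark replicate 1.

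Alternatives were the replicate block, DESeq2 1.42.0 on the same or all genes, other scalings, no filter, no fold change threshold, offsets for GC content (a lowess curve per library, span 0.3), and each library left out. Chosen after seeing the data were the newer quasi-likelihood method of edgeR, the block with a library left out, and GC offsets with the block in the comparison of both KDs. The members, lists and motifs were chosen with earlier results of these data known. Library values are printed for POLR2A, TBP and GTF2E2, for members called with or without the block, and for the 5 largest differences of each experiment. Of the related lists, up to 4 called genes with the smallest p are named. Some items are not reported here. Shared sequence is the percentage of the 31-base stretches of a gene's canonical transcript found in transcripts of other genes. Counts are whole reads, so the precision of a level is limited by its number of counts.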

Additional observations from a re-analysis of the deposited data

Results flagged for a closer look

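The difference between the TAF13 values of both experiments passed the test of the difference itself, though KD and experiment cannot be told apart in it and TAF13 did not pass in MLL1 KD cells alone (adjusted p = 0.395). Its log2 fold change in AF9 KD cells minus that in MLL1 KD cells was -1.63 ± 0.32 (SE, edgeR, adjusted p = 0.0462 over 12750 genes), from values below control in 2 of 2 AF9 KD libraries and above control in 3 of 3 MLL1 KD libraries. The MLL1 experiment held 17 to 51 counts of the gene a library and the AF9 experiment 87 to 191. With offsets for GC content the difference was -1.48 and did not pass (adjusted p = 0.0804). Over the 3 alternatives of this test the adjusted p ranged from 0.00237 to 0.0804.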

How the results depend on the processing

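The number of members called in MLL1 KD cells rose from 0 to 2 (GTF2B and TAF7) with the replicate block, with the block and GC offsets, with the block and any 1 library left out, with either order of DESeq2 and with replicates 2 and 3 alone. It was 0 with other scalings, with GC offsets alone, without a filter, without a fold change threshold and with any 1 library left out without the block. In AF9 KD cells it was 3, and 6 with total counts, 2 with GC offsets, 12 without a fold change threshold and 2 to 6 with 1 library left out. POLR2E was not called without control replicate 1, POLR2I, POLR2J and TAF6 were called as well without control replicate 2, GTF2A1 without AF9 KD replicate 1, and POLR2F and POLR2J without AF9 KD replicate 2. Total counts moved the share of higher calls over all genes from 61.3% to 76.4%, and GC offsets to 46.4%. In the AF9 experiment the 2 pairs of equal numbers had correlations of 0.156, so the libraries share only a number, and the replicate block called the same 3 members. The number of members whose effects differed between the KDs was 1, and 7 with the block, 0 with GC offsets and 5 with both. Where no share over all genes is given for a setting, its count of members cannot be set against that share.

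The median log2 fold change of the members in AF9 KD cells moved from -0.01 to 0.077 with total counts and to 0.035 and 0.032 with GC offsets without and with the block, and lay between -0.029 and 0.001 with 1 library left out. In MLL1 KD cells it lay between 0.01 and 0.20 with 1 library left out. The median level in control cells of the MLL1 experiment moved from 31.5 to 39.5 TPM with the canonical transcript. The sign turned under some alternative for 15 of the 42 members after MLL1 KD and for 16 after AF9 KD. Of these, GTF2F1 had passed, in AF9 KD cells, and was at -0.01 with GC offsets. Among the members given by library, the following turned. In MLL1 KD cells leaving out 1 library gave -0.071 to 0.226 for POLR2A, -0.423 to 0.217 for GTF2E2, -0.066 to 0.271 for POLR2E, -0.55 to 0.73 for POLR2L and -0.57 to 0.16 for POLR2F. With the block and without either library of replicate 2, POLR2F was at 0.028 and 0.035. GTF2E2 was at -0.028 with the block, at -0.032 with the block and GC offsets, and at -0.27 with replicates 2 and 3 alone. In AF9 KD cells POLR2A was at -0.127 with GC offsets and -0.128 with the block too, TBP at 0.067 with total counts and 0.019 and 0.018 with GC offsets without and with the block, and TAF12 at 0.031 and 0.003 with total counts and GC offsets. TAF7 was at -0.015 without a filter and -0.006 with DESeq2 on all genes. Leaving out 1 library gave -0.056 to 0.018 for TBP and -0.026 to 0.039 for TAF7. The causes were not tested.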
